A study of Mus musculus with 8 samples.

Results

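The GIMAP proteins (GTPases of the immunity-associated protein family) form a small family of GTP-binding proteins of lymphocytes. The 8 genes described here are Gimap1, Gimap3, Gimap4, Gimap5, Gimap6, Gimap7, Gimap8 and Gimap9. They were taken by symbol and not by a cut on their values, but with earlier results of these data known. All 8 were found among the 13204 genes measured in mouse CD8 T cells sorted from spleen on day 14 after a skin graft. GIMAP proteins bind GTP and sit on membranes inside the cell, such as those of lysosomes, the Golgi apparatus and the endoplasmic reticulum. In mice and rats, loss of several members shortens the life of mature T cells, so the family is known for keeping resting lymphocytes alive. The genes lie side by side in 1 cluster.

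FcgRIIB-positive cells (4 libraries) carry on their surface the inhibitory receptor for the Fc part of IgG, and FcgRIIB-negative cells (4 libraries) do not. All cells were OT-I, that is CD8 T cells with a transgenic receptor for an ovalbumin peptide, and all were sorted as CD44hi, Thy1.1+ and CD8+. They had been transferred (1000000 cells per the labels) 24 hours before a graft of ovalbumin-expressing skin. Each of the 4 pools combined 3 spleens and gave 1 library of each kind, made from 1000 sorted cells, so that a positive and a negative library with the same number come from the same animals. The sources used here give no sex, age or strain of the recipient mice.

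Depth, recovered from the steps in the values, lay between 3060000 and 22010000 reads per library, and pools 1 and 2 were deeper than pools 3 and 4. The sorted gene Fcgr2b averaged 48.5 ± 17.8 RPKM in positive cells, against 3.65 ± 1.43 RPKM in negative cells (n = 4 each, SD). RPKM counts the reads on a gene's exons, divided by exon length and by library depth. The positive libraries also held transcripts of other cell types. Of 10 dendritic cell markers 9 passed the test as higher, with a summed level of 574 to 1069 RPKM in positive cells, against 24.7 to 79.5 RPKM in negative cells. Of 12 macrophage and monocyte markers 9 were called higher, and of 7 basophil and mast cell markers 3, against 3.03% of all genes tested. With the pool as a block, 10 of 10 dendritic cell, 11 of 12 macrophage and 7 of 7 basophil and mast cell markers were called higher. Over all genes tested that share was 7.22%. The 17 core T cell genes were all detected, and their summed level was 2283 to 4888 RPKM in positive cells, against 5981 to 9550 RPKM in negative cells. Their part in the results below was not tested, apart from a rescaling to the core T cell genes that is given where it bears on them.

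Every Gimap gene was lower in FcgRIIB-positive cells, in every pool. Summed over the family, transcript levels were 1309.5, 697, 989 and 657 RPKM in positive libraries 1 to 4, against 1982, 2232, 2454 and 1295 RPKM in negative libraries 1 to 4. The positive library held 66.1%, 31.2%, 40.3% and 50.8% of the level of its negative partner in pools 1 to 4. The groups just overlapped, since positive library 1 lay above negative library 4. Member by member the difference was similar in size, from -0.86 for Gimap8 to -1.29 for Gimap7 on the log2(RPKM + 1) scale, with a median of -1.17 beside a median of -0.11 over all 11946 genes tested. In bulk libraries, fewer cells of a type and less RNA per cell cannot be told apart.

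**Figure D1:**
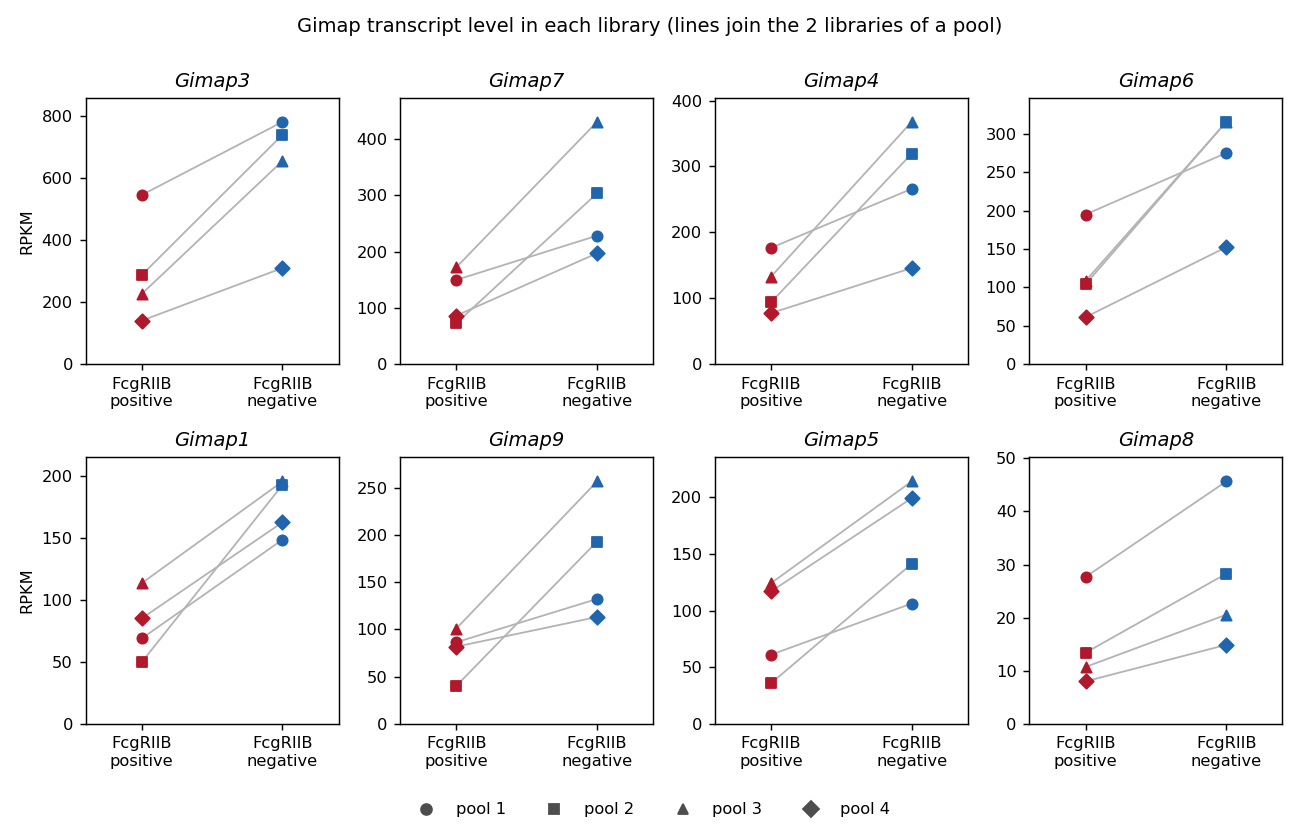
Level of each Gimap gene in RPKM (linear axes from 0, a scale of its own per gene), FcgRIIB-positive libraries left and FcgRIIB-negative libraries right, with lines joining the 2 libraries of a pool. Every line runs upward to the negative library, while the height at which a pool sits differs from gene to gene.

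Whether these differences passed the test depended on the use of the pools. Limma (a linear model fitted over all genes, two-sided, Benjamini-Hochberg adjustment, threshold 0.05) called none of the 8 members in either direction when only the group was modelled, with adjusted p between 0.147 and 0.493. Over all genes this fit called 0.268% lower and 3.03% higher. At an unadjusted p under 0.05, 7 of the 8 members were lower, against 4.67% of all genes. With the pool as a block, which compares each positive library with the negative one from the same spleens, limma called 8 of 8 members lower, with adjusted p between 0.0026 and 0.0175. That fit called 3.85% of all genes lower and 7.22% higher. All 8 members were lower in 4 of 4 pools, a property of 19.8% of all genes tested (10.3% were higher in all 4). For Gimap1, Gimap7 and Gimap9 the 2 groups did not overlap at all, as for 4.15% of all genes on that side and 4.61% on the other.

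The sequence around the start of 3 members and of 1 neighbouring gene is shown because the members were all lower in positive cells while that neighbour was higher. Each is the RefSeq window on GRCm38.p6 from 250 bases before the annotated start to 50 bases after it, written 5′ to 3′ on the gene's own strand. Gimap7 (chr6:48718371-48718670, plus strand) had the largest difference, Gimap3 (chr6:48770802-48771101, minus strand) the highest level, and Gimap5 (chr6:48745947-48746246, plus strand) the profile least like the others. For Tmem176b the annotation has several starts, and the window shown (chr6:48841325-48841624, minus strand) overlaps both windows of its divergent partner Tmem176a, by 208 and 219 bases. Capitals mark 2 motifs on either strand, the ETS core AGGAAG and the RUNX core TGTGGT.
Gimap7: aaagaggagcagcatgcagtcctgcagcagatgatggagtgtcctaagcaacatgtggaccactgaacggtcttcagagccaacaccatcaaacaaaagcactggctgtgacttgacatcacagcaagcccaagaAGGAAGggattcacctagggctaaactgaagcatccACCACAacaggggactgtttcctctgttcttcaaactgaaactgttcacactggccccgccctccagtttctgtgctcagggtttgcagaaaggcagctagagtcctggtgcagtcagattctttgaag
Gimap3: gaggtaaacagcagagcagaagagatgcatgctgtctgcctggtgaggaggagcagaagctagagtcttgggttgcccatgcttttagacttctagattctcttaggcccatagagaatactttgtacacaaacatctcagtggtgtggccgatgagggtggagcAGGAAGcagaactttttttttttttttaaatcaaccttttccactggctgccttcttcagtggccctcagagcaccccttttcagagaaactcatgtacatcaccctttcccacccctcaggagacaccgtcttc
Gimap5: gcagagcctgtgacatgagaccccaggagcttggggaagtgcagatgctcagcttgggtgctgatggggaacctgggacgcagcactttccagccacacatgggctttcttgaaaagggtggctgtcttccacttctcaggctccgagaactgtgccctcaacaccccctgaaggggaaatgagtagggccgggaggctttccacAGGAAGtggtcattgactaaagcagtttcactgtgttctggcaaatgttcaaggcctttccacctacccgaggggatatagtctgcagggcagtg
Tmem176b: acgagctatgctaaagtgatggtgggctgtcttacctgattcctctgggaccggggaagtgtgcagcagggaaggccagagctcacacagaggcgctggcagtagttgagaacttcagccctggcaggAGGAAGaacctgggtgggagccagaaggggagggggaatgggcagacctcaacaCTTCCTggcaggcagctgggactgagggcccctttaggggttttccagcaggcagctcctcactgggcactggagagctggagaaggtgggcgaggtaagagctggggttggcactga

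RefSeq windows were found for 8 of 8 members, 9 windows in all, since Gimap8 has a second start. The ETS core was searched only as the letters AGGAAG, so other forms of it were not counted. These letters were in 7 of these 9 windows, all but that of Gimap6 and 1 of Gimap8. Over the genome they were in 35.4% of all 32851 such windows. The RUNX core was found at Gimap1, Gimap4 and Gimap7 (16.8% of all windows), and the TCF/LEF core CTTTGA at Gimap4 and Gimap7 (16.003% of all windows). The KLF motif CCACCC was found in 5 of the 9 windows (31.5% of all windows) and the composite element of interferon regulatory factors at none (3.44% of all windows). The Tmem176b window shown also holds the letters AGGAAG, at 2 places counting both strands, and the other 2 Tmem176b windows do not hold them. Both strands were searched for every motif, and overlap between motifs was not removed. A match describes the letters, and its absence says only that these letters are not in the window.

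Among members linked to lymphocyte survival, Gimap5, a lysosomal GTPase whose loss depletes T cells in mice and rats, stood at 61.0, 35.7, 124 and 117 RPKM in positive libraries 1 to 4. In negative libraries 1 to 4 it stood at 106, 141, 214 and 199 RPKM. The groups overlapped, since positive libraries 3 and 4 lay above negative library 1, and pools 3 and 4 were the high ones on the negative side too. Its difference was -1.07 on the log2 scale (SE 0.47, limma adjusted p = 0.370, and 0.00782 with the pool as a block). The pools did not share it evenly: pool 2 differed by -1.95 and the other pools by -0.76 to -0.79.

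Gimap3, the closest relative of Gimap5 in the mouse and known there from the endoplasmic reticulum, was the most abundant member in 8 of 8 libraries. It stood at 544, 287, 226 and 140.4 RPKM in positive libraries 1 to 4, and at 779.5, 738, 654 and 309 RPKM in negative libraries 1 to 4. Here pools 1 and 2 were the high ones, the opposite of Gimap5, and positive library 1 lay above negative library 4. The difference was -1.13 (SE 0.52, limma adjusted p = 0.405, and 0.0165 with the pool as a block). The transcripts of Gimap3 and Gimap5 in GENCODE M21 have 190 stretches of 50 bases in common, 7.52% of those of Gimap3 and 4.53% of those of Gimap5, so a small part of their reads could be shared. No other pair of members had a stretch of that length in common. Exons of Gimap1, Gimap5 and Gimap7 share 198, 153 and 81 bases with Gm28053, a protein-coding gene annotated on the same strand.

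Gimap1, which mature T and B cells of the mouse need for their maintenance, separated the groups completely. It stood at 69.0, 49.8, 114 and 85.2 RPKM in positive libraries 1 to 4, against 149, 193, 196 and 163 RPKM in negative libraries 1 to 4. The lowest negative library was above the highest positive one. The difference was -1.18 (SE 0.37, limma adjusted p = 0.147, and 0.00292 with the pool as a block), the smallest unblocked p of the family. Of the exon bases annotated to Gimap1, 1107 of 3073 lie opposite exons of the antisense gene Gimap1os, whose reads cannot be told apart where counting ignores strand.

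Gimap4, a regulator of T cell death in the mouse, stood at 176, 93.7, 133 and 77.4 RPKM in positive libraries 1 to 4. In negative libraries 1 to 4 it stood at 266, 319, 368 and 146 RPKM. Positive library 1 alone lay above the lowest negative library, that of pool 4. The difference was -1.18 (SE 0.44, limma adjusted p = 0.251, and 0.00477 with the pool as a block).

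Gimap6, which takes part in autophagy and binds the autophagy protein GABARAPL2, stood at 195, 104, 108 and 61.3 RPKM in positive libraries 1 to 4. The negative libraries 1 to 4 held 275, 316, 315 and 152 RPKM. As for Gimap4, the overlap of the groups came from positive library 1 and negative library 4. The difference was -1.23 (SE 0.45, limma adjusted p = 0.238, and 0.00297 with the pool as a block).

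Gimap7, whose human counterpart acts as a GTPase in pairs, had the largest difference of the family. It stood at 149.7, 72.9, 172 and 86.4 RPKM in positive libraries 1 to 4, against 228, 303, 430.2 and 197 RPKM in negative libraries 1 to 4. The groups did not overlap. The difference was -1.29 (SE 0.43, limma adjusted p = 0.188, and 0.0026 with the pool as a block), which leaves 41.0% of the negative level on the RPKM + 1 scale.

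Gimap9 also kept the groups apart, with 86.3, 40.2, 101 and 81.7 RPKM in positive libraries 1 to 4. Its negative libraries 1 to 4 held 132, 193, 257 and 113 RPKM. Its pools disagreed most in size, from -0.46 in pool 4 to -2.24 in pool 2. The difference was -1.16 (SE 0.42, limma adjusted p = 0.240, and 0.0075 with the pool as a block).

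Gimap8, a larger protein with several GTP-binding domains, was the least abundant member in 8 of 8 libraries. It stood at 27.7, 13.4, 10.7 and 7.99 RPKM in positive libraries 1 to 4, and at 45.6, 28.3, 20.5 and 14.9 RPKM in negative libraries 1 to 4. The same order of pools held in both groups, and the groups overlapped through positive library 1, which lay above negative libraries 3 and 4. The single pools differed by between -0.70 and -1.02. The difference of -0.86 was the smallest of the family (SE 0.44, limma adjusted p = 0.493, and 0.0175 with the pool as a block). Between 168 and 30030 reads stood behind each member's value in a library.

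On the RPKM scale, which is per length and so allows genes to be compared, the order of the mean levels was much alike in both groups. Gimap3 led, with 299.5 ± 174.0 RPKM in positive cells, against 620.2 ± 213.7 RPKM in negative cells (n = 4 each, SD). Gimap7, Gimap4 and Gimap6 followed, with 120.3, 120.1 and 117 RPKM in positive cells, against 289.7, 274.7 and 265 RPKM in negative cells, then Gimap1, Gimap5 and Gimap9 with means of 77.3 to 84.4 RPKM in positive cells, against 165 to 175 RPKM in negative cells. These 6 changed places from library to library, and their means lay within each other's SD inside each of these sets of 3. Gimap8 came last with 14.9 ± 8.76 RPKM in positive cells, against 27.3 ± 13.4 RPKM in negative cells.

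**Figure D2:**
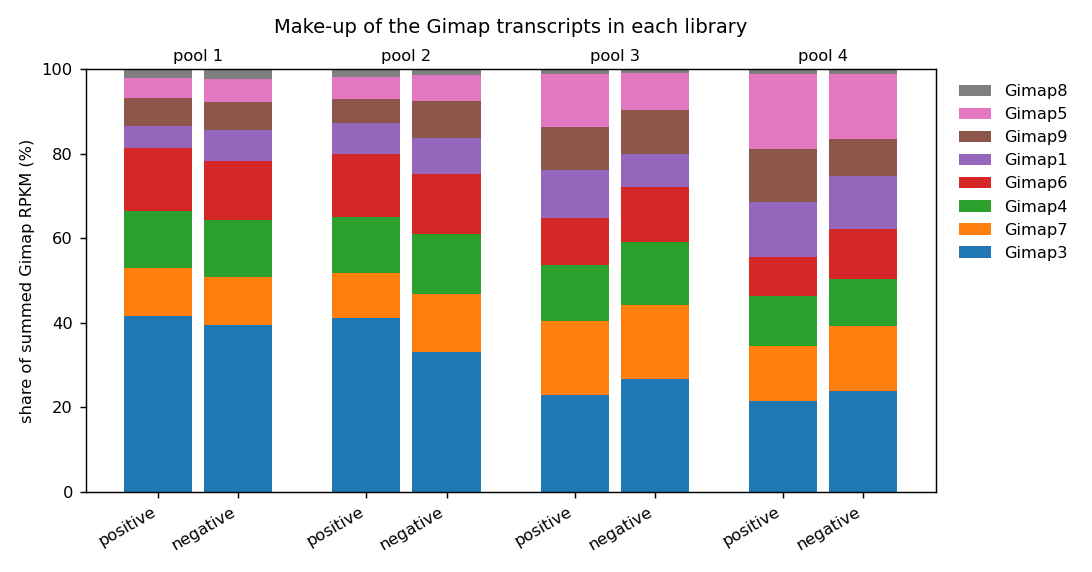
Share of each Gimap gene in the summed Gimap RPKM of a library (percent, linear axis), by pool, with the FcgRIIB-positive library left of its FcgRIIB-negative partner. Bars of one pool resemble each other, and in pools 3 and 4 the share of Gimap3 is smaller and that of Gimap5 larger.

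The make-up of the family differed between pools in both groups. Gimap3 made up 41.6%, 41.2%, 22.9% and 21.4% of the summed Gimap level in positive libraries 1 to 4, against 39.3%, 33.1%, 26.6% and 23.9% in negative libraries 1 to 4. Gimap5 made up 4.66%, 5.12%, 12.5% and 17.8% in positive libraries 1 to 4, against 5.36%, 6.33%, 8.72% and 15.4% in negative libraries 1 to 4. The ratio of Gimap3 to Gimap5 was 8.93, 8.04, 1.82 and 1.20 in positive and 7.34, 5.23, 3.06 and 1.55 in negative libraries 1 to 4. In pools 3 and 4, relative to pools 1 and 2, Gimap5 was higher by 1.35 on the log2 scale in positive and by 0.75 in negative libraries, while Gimap3 differed by -1.14 and -0.75 and Gimap8 by -0.985 and -0.998. The mean of the core T cell genes differed by -0.18 in both groups. Pools 1 and 2 also differ from pools 3 and 4 in depth, and the labels name no batch, so the part of depth in this was not tested. Only Gimap7 had a lower share of the family in positive cells in 4 of 4 pools. It made up 11.4%, 10.5%, 17.4% and 13.1% in positive libraries 1 to 4, against 11.5%, 13.6%, 17.5% and 15.2% in negative libraries 1 to 4. Pools 1 and 3 thus hardly differed. The means were 13.1% ± 3.07 in positive cells against 14.5% ± 2.54 in negative cells (SD, n = 4 each). These SDs hold the spread between pools, and the difference within pools was not tested.

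Over the 8 libraries the members' log2 values correlated with each other at a median Pearson r of 0.77 for the 28 pairs of genes. This is a description over libraries that share group, pool and depth. Gimap3 with Gimap6 and Gimap4 with Gimap6 reached 0.97, and Gimap7 with Gimap9 0.96. At the other end Gimap5 correlated with Gimap8 at 0.0085 and with Gimap3 at 0.14, and with Gimap1 at 0.90. Against the mean of the other members, Gimap4 (0.97) and Gimap7 (0.96) were closest and Gimap5 (0.53) and Gimap8 (0.65) farthest.

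The measured neighbours of the cluster had other values than its members. In RefSeq's gene order the cluster runs Gimap8, Gimap9, Gimap4, Gimap6, Gimap7, Gimap1, Gimap5, Gimap3. Of the 4 protein-coding genes on each side, Repin1 and Zfp775 (before) and Tmem176b and Tmem176a (after) were in the table, and Rarres2, Gm5111, Gm7932 and Aoc1 are not analysed here. The zinc finger genes Repin1 and Zfp775 were low, at 1.82 and 2.77 RPKM in positive cells, against 1.85 and 3.56 RPKM in negative cells, with differences of -0.0079 (SE 0.33) and -0.31 (SE 0.37) that did not pass (limma adjusted p = 1.000 and 0.927). Scaled to core T cell genes they stood at 0.61 and 0.39, and Repin1 at 0.026 with median ratios.

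Tmem176b, which codes for a membrane protein known from dendritic cells, stood at 83.0, 121, 75.5 and 86.3 RPKM in positive libraries 1 to 4, against 1.95, 10.4, 4.95 and 6.94 RPKM in negative libraries 1 to 4. The groups were far apart. Its difference was 3.85 (SE 0.41, limma adjusted p = 0.000441), and that of its partner Tmem176a was 3.74 (SE 0.52, limma adjusted p = 0.00199). Tmem176a averaged 60.8 ± 19.2 RPKM in positive cells, against 4.60 ± 4.05 RPKM in negative cells (n = 4 each, SD). The dendritic cell markers were higher in the same libraries (9 of 10 called), and their part in these 2 genes was not tested.

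**Figure D3:**
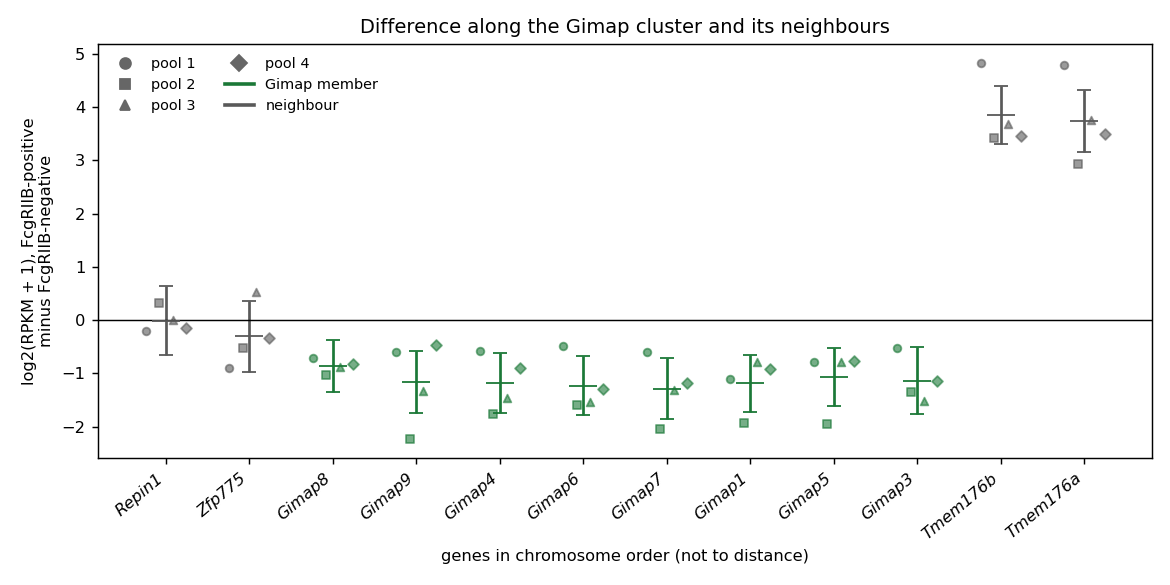
Difference in log2(RPKM + 1), FcgRIIB-positive minus FcgRIIB-negative, for the Gimap genes (green) and their measured neighbours (grey) in chromosome order, spaced evenly. Horizontal ticks are the differences over all 8 libraries, bars their 95% intervals from the fit with the pool as a block, and small symbols the single pools; the 8 Gimap genes lie between -0.86 and -1.29, Repin1 and Zfp775 near 0, and Tmem176b and Tmem176a at 3.85 and 3.74.

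The Gimap genes were then set beside genes that define T cells, since the positive libraries held less of both. The 17 core T cell genes, among them those of the CD3 chains, the CD8 chains and the kinases LCK and ZAP70, had a median difference of -0.97. All 17 were below 0, beside 61.2% of all genes tested. They did not move evenly, with a range from -1.39 for Cd5 to -0.07 for Thy1. The sort marker gene Cd8a was at -0.28, and Thy1 was lower in 2 pools and higher in 2. None was called by limma without the block (6 lower at an unadjusted p under 0.05, against 4.67% of all genes). With the block 9 were called lower, against 3.85% of all genes. The most abundant, Cd8b1 and Cd3g, were at 697 and 635 RPKM in positive cells, against 1326 and 1188 RPKM in negative cells, with differences of -0.95 (SE 0.48) and -0.98 (SE 0.53). The mean log2 value of these genes was 7.20, 6.34, 6.78 and 6.39 in positive libraries 1 to 4, against 7.73, 7.70, 7.83 and 7.24 in negative libraries 1 to 4. The mean of the Gimap genes was 6.85, 5.97, 6.64 and 6.09 in positive libraries 1 to 4, against 7.52, 7.70, 7.84 and 7.02 in negative libraries 1 to 4. Both means were lowest in positive library 2 and highest in negative library 3. By pool the core T cell mean differed by -0.54, -1.36, -1.05 and -0.85, and the median Gimap gene by -0.61, -1.85, -1.33 and -0.92, in pools 1 to 4.

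**Figure D4:**
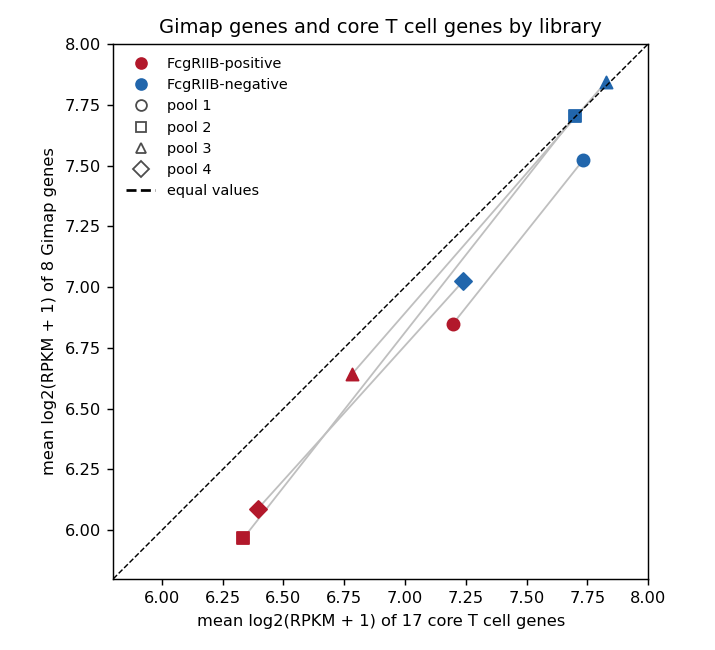
Mean log2(RPKM + 1) of the 8 Gimap genes against that of 17 core T cell genes, 1 symbol per library (red FcgRIIB-positive, blue FcgRIIB-negative, shape for the pool), with grey lines joining the 2 libraries of a pool and a dashed line of equal values. The libraries fall along 1 band, in which positive library 2 is lowest and negative library 3 highest, and each positive library is lower on both axes than its partner.

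Taken relative to the core T cell mean, most of the difference was gone. The Gimap mean minus the core T cell mean was -0.35, -0.37, -0.14 and -0.31 in positive libraries 1 to 4, against -0.21, 0.0044, 0.017 and -0.21 in negative libraries 1 to 4. It was lower in the positive library in 4 of 4 pools, at -0.29 ± 0.10 in positive cells against -0.10 ± 0.13 in negative cells (SD, n = 4 each), and the groups overlapped. After each library was scaled to its core T cell genes, the differences of the members ranged from -0.34 for Gimap7 to 0.036 for Gimap8, with a median of -0.23. With it the median over all genes tested shifted by 0.76 and stood at 0.65, and 3.83% of them were below 0. None of the 8 members passed in limma there, and 0 had an unadjusted p below 0.05; the same held with the pool as a block added. Without the block 0.0167% of all genes were called lower and 7.62% higher, and with it 0.117% lower and 34.9% higher. Of the 17 core T cell genes themselves, 2 were called higher with the block, Thy1 (0.85) and Cd8a (0.66), and none lower. The 95% interval of Gimap7 ran from -1.17 to 0.48, and that of Gimap8 from -0.79 to 0.86, without the block, so both include 0. With the block the SE was smaller, 0.21 for Gimap7 and 0.26 for Gimap8, against 0.38 for each without it.

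The genes whose level followed the Gimap mean most closely over the 8 libraries were Try5, H2-Q7, Xlr4a, Pdlim1, Vgll4 and Shisa5, with Pearson r from 0.987 to 0.994. The mean of the core T cell genes followed it with r = 0.989. These are descriptions over libraries that share group, pool and depth. Shisa5 averaged 595 ± 156 RPKM in positive cells, against 1217 ± 271 RPKM in negative cells (n = 4 each, SD), a difference of -1.04 (SE 0.44, limma adjusted p = 0.348). Vgll4, a cofactor of TEAD transcription factors, had -1.15 (SE 0.33, limma adjusted p = 0.103), Pdlim1, a cytoskeletal adaptor, -1.13, and Xlr4a -1.09. H2-Q7, a class I gene, had -0.79, and Try5, a trypsinogen gene, -1.64 (limma adjusted p = 0.0481), a call lost on dropping positive library 2, 3 or 4 or negative library 1, 2 or 3 (adjusted p of 0.0552 to 0.186). Try5, H2-Q7 and Xlr4a belong to families of very similar genes, so their values are uncertain where reads are shared.

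Genes reported to work with the GIMAP proteins went both ways, much as all genes tested did. The list of reported partners holds the BCL2 family, the kinase gene Gsk3b and autophagy genes, and 12 of 12 were tested. None was called by limma. At an unadjusted p under 0.05, 1 was lower and 1 higher, where 4.67% of all genes were lower. The median was -0.06, with 7 genes below 0 and 5 above. Over all genes tested 61.2% were below 0, with a median of -0.11. The most abundant members, the autophagy genes Gabarapl2 and Map1lc3b, were at 402 and 358 RPKM in positive cells, against 393 and 369.9 RPKM in negative cells, with differences of 0.033 (SE 0.43) and -0.10 (SE 0.45). With the pool as a block only Gabarapl1, a relative of Gabarapl2, was called, and it was higher by 0.89 (adjusted p = 0.0186). Bcl2, the survival gene, chosen with its value known, had 10.9 RPKM in positive cells, against 18.9 RPKM in negative cells, with a difference of -0.74 (blocked limma adjusted p = 0.0581). For Bcl2 and Gabarapl1 the groups did not overlap, as for 4.15% of all genes on the lower side and 4.61% on the higher side. Scaled to the core T cell genes, the median of this list was 0.83, and limma called 1 of 12 higher (Gabarapl1) without the block and 8 of 12 higher with it, where 34.9% of all genes were called higher.

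Genes of resting and long-lived lymphocytes were mostly lower as well. Of 16 tested, 15 were below 0, beside 61.2% of all genes tested, and the median was -0.63. None was called by limma without the block. At an unadjusted p under 0.05, 5 were lower and 1 higher, where 4.67% of all genes were lower. With the block 6 were called lower and 1 higher, where 3.85% of all genes were called lower and 7.22% higher. The transcription factor genes Lef1, Foxo1, Foxp1 and Ets1 and the egress receptor gene S1pr1 were among those called lower with the block, with differences of -1.19, -0.89, -0.86, -0.85 and -0.89. Slfn2, a quiescence gene, was at 241 RPKM in positive cells, against 392 RPKM in negative cells, and was not called. Btg2, an antiproliferative gene, was called higher with the block, by 1.05. Scaled to the core T cell genes, the median of this list was 0.23.

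A second family of immune GTPases, those induced by interferon, was measured beside them. Of 13 listed genes 12 were tested, 8 were below 0 and 4 above (61.2% of all genes tested were below 0), and the median was -0.36. None was called by limma (0 at an unadjusted p under 0.05). Gbp4 and Irgm1, guanylate-binding and immunity-related GTPases, had the highest means over all 8 libraries, at 40.4 and 58.7 RPKM in positive cells, against 52.0 and 80.3 RPKM in negative cells. With the block 2 were called lower (3.85% of all genes were), Gbp6 and Igtp, with differences of -1.04 and -0.80. The difference between this family and the Gimap genes was not tested.

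Markers of other cells that express Gimap genes or could fall into the gate were also measured, and no marker was at 0 in all positive libraries. Endothelial markers stayed low, with a summed level of 24.6 to 43.7 RPKM in positive cells, against 21.5 to 41.7 RPKM in negative cells. None of the 6 tested was called (1 higher at an unadjusted p under 0.05), while Cdh5, Tek and Cldn5 are not analysed here. The members with the highest mean over all 8 libraries, Pecam1 and Esam, had differences of -0.39 (-0.72 to -0.072 with single libraries left out) and 1.12 (0.71 to 1.53). Of 7 B cell and plasma cell markers tested, 5 were below 0 (61.2% of all genes were). Only Jchain was called, by 5.60 (limma adjusted p = 0.0487). Of 6 NK cell markers only Eomes, which CD8 T cells also express, was called, with 7.55 RPKM in positive cells, against 19.0 RPKM in negative cells. No neutrophil marker of 6 and no platelet or erythroid marker of 4 was called (0 at an unadjusted p under 0.05 in both). S100a8 and S100a9 had differences of -2.10 and -1.79, and Hbb-b1 and Alas2 of 0.82 and 0.60. These values rested on single libraries. Without positive library 2, S100a8 was at -0.31 and S100a9 at 0.023, Hbb-b1 was at 0.33 without positive library 4, and Alas2 at 0.0058 without negative library 4. The called dendritic cell markers with the smallest p were Naaa, Cadm1 and Clec9a (4.16, 3.77 and 4.90), those of macrophages Hmox1, C1qa and Adgre1 (3.09, 2.88 and 3.33), and those of basophils and mast cells Fcer1a, Mcpt8 and Hdc (3.47, 5.77 and 1.83). Some of these calls were lost when a single library was left out, which also leaves the test fewer libraries. That of Eomes was lost on dropping any library but positive library 4, that of Jchain on dropping any but positive library 4 or negative library 2, that of Hdc on dropping positive library 2 or negative library 1, 3 or 4, and that of Mcpt8 on dropping negative library 3. Their highest limma adjusted p were 0.103, 0.186, 0.135 and 0.0548. The call of Eomes was also lost with median ratios, quantile normalization, core T cell scaling (-0.36) or pools 3 and 4 alone (adjusted p = 0.0533, 0.0619, 0.510 and 0.247). That of Jchain was lost with a pseudocount of 0.1 or quantile normalization (adjusted p = 0.0532 and 0.0771), and that of Hdc with at least 1 RPKM required in all 8 libraries (adjusted p = 0.0513). With the pool as a block limma called all 4. In single pools Eomes differed by between -1.04 and -1.45.

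The sort markers give the frame for these values. Cd8a was at 210.2 ± 38.8 RPKM in positive cells, against 260.4 ± 70.7 RPKM in negative cells, Cd44 at 40.9 ± 22.1 RPKM in positive cells against 25.2 ± 13.3 RPKM in negative ones, and Thy1 at 59.0 ± 51.7 RPKM in positive cells against 46.8 ± 31.8 RPKM in negative ones (SD, n = 4 each). None of them passed in limma. Like Gimap5, Thy1 was high in pools 3 and 4 of both groups. In pools 3 and 4 it had 106 and 102 RPKM in positive cells, against 52.8 and 89.4 RPKM in negative cells. In pools 1 and 2 it had 20.4 and 8.48 RPKM in positive cells, against 24.4 and 20.6 RPKM in negative cells.

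Fits within 2 pools had 2 libraries per group and used no block. Within pools 1 and 2 alone limma called 4 of 8 Gimap genes lower, Gimap1, Gimap5, Gimap7 and Gimap9, where 1.19% of all genes were called lower. Within pools 3 and 4 alone none passed in limma, where 0.0921% of all genes were called lower. At an unadjusted p below 0.05, 6 members were lower there, as were 450 of all 11946 genes tested. All 8 members were below 0 in both sets, from -1.51 to -0.86 in pools 1 and 2 and from -1.42 to -0.77 in pools 3 and 4. Gimap1, Gimap5 and Gimap9 had the larger differences in pools 1 and 2 (-1.51, -1.37 and -1.42, against -0.85, -0.77 and -0.90 in pools 3 and 4), and Gimap3 and Gimap6 the smaller ones (-0.94 and -1.04, against -1.33 and -1.42). For Gimap9 this came from pool 2 (-2.24), since pool 1 (-0.61) differed by less than pool 3 (-1.34). For Gimap5 it also came from pool 2 (-1.95), with -0.79 in pool 1 and -0.78 and -0.76 in pools 3 and 4. The smaller differences of Gimap3 and Gimap6 came from pool 1 (-0.52 and -0.49). Pool 2 (-1.36 and -1.59) differed by more than pool 4 (-1.14 and -1.30) for both. This contrast between the sets was not tested. After quantile normalization of all 8 libraries, limma called 1 of 8 members lower, Gimap1 (adjusted p = 0.0424), where 0.502% of all genes were called lower.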

How the data were processed

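Poly(A) RNA from 8 libraries, 4 FcgRIIB-positive and 4 FcgRIIB-negative, was made into cDNA with the SMART-seq v4 kit and into libraries with the NexteraXT kit, per the labels' protocols. The authors deposited RPKM per gene, per the file headers. Per the submitters' processing notes the tool was TopHat2 and the build mm9. The counting step and its use of strand are not stated in these sources. Gene names and order and the start windows came from RefSeq on GRCm38.p6, and transcript sequences from GENCODE M21, a build other than that of the files, so no position was carried over.

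Depths were recovered from the steps of 1 read in the RPKM values, of which, below 30 reads, 97.9% to 100% per library were whole within 0.1 reads. Genes that reached 1 RPKM in 4 or more libraries (11946 of 13204) were tested by limma 3.58.1 under R 4.3.3 (lmFit, eBayes with trend) on log2(RPKM + 1), group as the only term, positive minus negative, Benjamini-Hochberg over all genes tested. Such fold changes understate the change of low genes. The second fit had the pool as a block. Per the series' design text, libraries with 1 number come from 1 pool of spleens. Correlations of their deviations were 0.70, 0.41, 0.56 and 0.68 for pools 1 to 4. Reads of amplified cDNA are not independent molecules. The steps were tested on simulated data.

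The members and lists were chosen with earlier results of these data known. The text names all members, from each list up to 3 called genes by smallest p or else the 2 most abundant, the measured neighbours among 4 genes on each side, the 6 genes most correlated with the Gimap mean, and the sort markers; genes named after their values were seen, or called with the block alone, are given as such. The values of 1 listed gene are not reported here. Alternatives were another pseudocount (0.1), no filter, at least 1 RPKM in all 8 libraries, 3 scalings, each library left out, and pools 1 and 2 or 3 and 4 alone. These were run without the block, and only the core T cell scaling was also run with it.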

Additional observations from a re-analysis of the deposited data

Results flagged for a closer look

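Of 126 groups of 4 values checked for a single value far from the rest, 6 stood out by Dixon's ratio of gap to range; chance alone flags about 1 in 20. The difference of Gimap5 between positive and negative cells was -1.95 in pool 2 and -0.76 to -0.79 in the other pools (ratio 0.978). The share of Gimap4 in the family was 11.8% in positive library 4 and 13.4% to 13.5% in the other positive libraries (ratio 0.966). Outside the family, S100a8 and S100a9 were at 0.23 and 0.14 RPKM in positive library 2 only, with log2 values above 7 in the other positive libraries (ratios 0.932 and 0.959). Jchain was high in negative library 2 alone among the negative ones (ratio 0.854), and Cd8a was lowest in positive library 4 (ratio 0.844).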

How the results depend on the processing

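The 8 Gimap genes stayed below 0 in every fit run except those scaled to the core T cell genes, where Gimap8 was at 0.036 with or without the replicate block and the other 7 stayed below 0. The number called lower, 0 without the block, was 8 with the replicate block, 4 in replicates 1 and 2 alone, 1 after quantile normalization (Gimap1) and 0 otherwise; none was called higher in any fit. The fit with the block was not repeated with libraries left out. When single libraries were dropped from the fit without it, the number stayed 0 and the median difference lay between -1.39 and -1.03. Single members lay between -1.51 and -0.58. Their median was -0.23 after scaling to core T cell genes, alone or with the block, the fit with both being chosen after seeing the data. The cause was not tested.

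Over all genes the counts lower and higher were 32 and 362. They were 460 and 863 with the block, 21 and 180 with at least 1 RPKM in all 8 libraries (fewer genes tested), 142 and 875 in replicates 1 and 2 alone, 2 and 910 scaled to core T cell genes, and 14 and 4169 with the block added. The lower count was 19 with median ratios, 60 by quantiles and 11 in replicates 3 and 4 alone. With single libraries left out the counts lay between 5 and 45 lower and between 178 and 503 higher.

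Among other named genes, scaling to core T cell genes, with or without the block, turned the sign of Map1lc3b (0.84), Slfn2 (0.23), Gbp4 (0.34), Irgm1 (0.46), Pecam1 (0.50), Repin1 (0.61), Zfp775 (0.39), H2-Q7 (0.15), Thy1 (0.85) and Cd8a (0.66). Repin1 was at 0.026 with median ratios. In replicates 1 and 2 alone Gabarapl2 was at -0.22 and Repin1 at 0.062. In replicates 3 and 4 alone Map1lc3b was at 0.11, S100a8 at 0.87, S100a9 at 1.39, Zfp775 at 0.094 and Thy1 at 0.59. With single libraries left out Map1lc3b lay between -0.31 and 0.12, Gabarapl2 between -0.14 and 0.23, Repin1 between -0.083 and 0.12, Thy1 between -0.55 and 0.61 and S100a9 between -2.45 and 0.023. The call of Try5 ended in 11 of 18 alternatives, among them any of 6 libraries left out.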
